A study of Mus musculus with 2 samples.

Results

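The Clcn5-hosted cluster of miR-188 and miR-532 is a group of 5 microRNA (miRNA) genes, Mir532, Mir188, Mir362, Mir501 and Mir500, that lie together in an intron of Clcn5 on the mouse X chromosome. The rule that picked them names the genes, and they make up 5 of the 1973 miRNA genes in the count tables. The data are 2 small RNA sequencing libraries from the hearts of B6NCrl mouse embryos at embryonic day 14.5, with no treatment named and in 1 group, numbered as biological replicates 1 and 2. Each was collected on its own day. The labels call each a single heart but also give the sex as pooled, and they name the same pup and dam number for both, so it is not settled whether the spread between them is one between animals. With no second group there is no contrast to test, and no p-value is given. Levels are counts scaled to 1000000 gene reads of the strand used (CPM). They are not divided by hairpin length, because a small RNA read covers a mature miRNA and not the hairpin.

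A miRNA is cut from a hairpin in a longer transcript, and its mature strand, from the 5′ arm (5p) or the 3′ arm (3p), guides silencing proteins to messenger RNAs that pair with its seed, bases 2 to 8. miRNAs cut from 1 transcript share its transcription but not necessarily their rates of cutting or decay. Clcn5 encodes an endosomal chloride and proton exchanger known mainly from the kidney, where its loss causes Dent disease. Of the cluster, miR-501 has been studied in muscle progenitor cells and miR-188 in bone marrow stromal cells and in heart muscle cells.

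The mature sequences show which members resemble each other, so they are given first. RefSeq (GRCm38.p6) gave a hairpin for all 5 genes and the 9 mature miRNAs below, and miR-532-5p was not analysed here. They are written 5′ to 3′ with the seed in capitals, in the order in which the hairpins are transcribed.
miR-532-3p: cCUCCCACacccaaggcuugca
miR-188-5p: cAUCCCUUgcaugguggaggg
miR-188-3p: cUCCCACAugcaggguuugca
miR-362-5p: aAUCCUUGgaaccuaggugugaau
miR-362-3p: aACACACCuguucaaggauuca
miR-501-5p: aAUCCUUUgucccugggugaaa
miR-501-3p: aAUGCACCcgggcaaggauuug
miR-500-5p: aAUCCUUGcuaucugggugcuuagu
miR-500-3p: aAUGCACCugggcaaggguuca

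The 9 sequences held 7 different seeds, and 2 of these were shared between members. miR-500-3p and miR-501-3p had the same seed and 18 of 22 bases in common. Read from miR-500-3p to miR-501-3p and counted from the 5′ end, the 4 differences were U9C, G18A, C21U and A22G, all outside the seed. miR-362-3p matched miR-500-3p at 17 of 22 bases, with 2 of its 5 differences, C3U and A4G, inside the seed. On the other arm miR-362-5p and miR-500-5p shared a seed, from which that of miR-501-5p departed by 1 base (G8U from miR-500-5p) and that of miR-188-5p by 2 (C6U and U8G from miR-188-5p). Between miR-188-5p and miR-501-5p the seed differed at 1 base (C6U from miR-188-5p). The seed of miR-188-3p was that of miR-532-3p moved along by 1 base, although without that shift the 3p arms matched at only 6 of 21 bases.

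All 5 hairpins lie on the minus strand of chromosome X in mm10, in the direction of Clcn5 (7153810 to 7319358), within 10815 bases. Mir532 (ENSMUSG00000070139.1, 7248402 to 7248497) comes first in transcription, and Mir188 (ENSMUSG00000065398.1, 7247989 to 7248056) follows after 345 bases. A gap of 5942 bases then leads to Mir362 (ENSMUSG00000070100.1, 7241982 to 7242046), and another of 630 to Mir501 (ENSMUSG00000076251.1, 7241243 to 7241351). Mir500 (ENSMUSG00000070108.2, 7237683 to 7237774) comes last, 3468 bases further on. Each hairpin lies wholly within the same intron (7213011 to 7316658) of 3 of the 5 annotated Clcn5 transcripts, which is intron 3 of a coding form with 15 exons, and overlaps 0 Clcn5 exons. Mir660, known from the same cluster, was not analysed here.

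All 5 members were detected, meaning 10 counts or more in both libraries, as were 337 of 1973 genes (17.1%). They also passed with a minimum of 50 counts. Replicates 1 and 2 had 8150499 and 7269505 reads, and 4327424 and 3839984 of them fell in miRNA genes on that strand. The share of reads mapping to several places, which enter no gene, was 30.4% ± 0.359 (SD, n = 2). None of the 5 hairpins shared a stretch of 20 bases, or of 18, with any other annotated miRNA hairpin, while 48.7% of the 1894 measured genes with a hairpin did at 20 bases. The longest stretch common to 2 members was 14 bases, in Mir501 and Mir500, the pair with the closest 3p arms. The rest of the genome was not searched for copies. The stretch is in capitals in the hairpins of both genes, which lie at chrX:7241243-7241351 and chrX:7237683-7237774 on the minus strand (GRCm38.p6).
Mir501: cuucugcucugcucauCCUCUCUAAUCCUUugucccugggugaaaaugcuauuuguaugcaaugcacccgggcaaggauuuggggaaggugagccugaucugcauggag
Mir500: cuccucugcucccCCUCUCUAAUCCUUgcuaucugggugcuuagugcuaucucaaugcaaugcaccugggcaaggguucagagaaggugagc

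The tissue label was checked on miRNA markers. The 3 heart muscle miRNAs, Mir208a, Mir208b and Mir499, summed to 75752 and 79353 CPM in replicates 1 and 2. The epithelial list summed to 667 and 1142 CPM and the red blood cell list to 1184 and 489 CPM. Endothelial Mir126a (69932 and 75015 CPM) and the smooth muscle pair Mir143 and Mir145a (64494 and 87098 CPM), from cells that the heart also holds, were of the same order as the heart muscle list. Multi-copy genes cannot be used for this check, since reads that map to several places enter no gene. Mir1a-1, a classic heart muscle miRNA with a second copy, had only 13 and 10 counts, and the 5 neuronal genes at 0 counts in both libraries, Mir124a-1, Mir124a-2, Mir124a-3, Mir9-2 and Mir9-3, also have copies, so their zeros do not show absence. Mir1a-1 was looked at after the values were seen.

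Mir532, the first hairpin of the cluster, had the most reads of any member. It had 11636 counts in replicate 1 and 11068 in replicate 2, or 2689 CPM (95% exact Poisson interval 2640 to 2738) and 2882 CPM (2829 to 2937). The mean was 2786 ± 137 CPM (SD, n = 2), rank 49 of all genes. All intervals here cover counting error only, as if each read were an independent molecule. PCR reads that carry no molecular identifier need not be, so the intervals can be too narrow.

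Mir188 stood just below its neighbour in both libraries. It had 9356 and 9034 counts, 2162 CPM in replicate 1 and 2353 in replicate 2, with a mean of 2257 ± 135 CPM and rank 55. Over the 2 libraries the range of Mir188 lay below that of Mir532 with no overlap, and within a library Mir532 was 1.24-fold (95% exact interval 1.21 to 1.28) and 1.23-fold (1.19 to 1.26) higher. The intervals of this fold between neighbours 345 bases apart overlapped.

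Mir501 came next in level. It had 6395 counts in replicate 1 and 3988 in replicate 2, which is 1478 CPM (1442 to 1514) and 1039 CPM (1007 to 1071). Its mean was 1258 ± 311 CPM, rank 75, and its SD of 24.7% of the mean was above the 2.61% to 8.02% of the other 4 members. Replicate 1 was high and replicate 2 low, and both values lay below those of Mir188 and above those of Mir500.

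Mir500 had 1498 and 1489 counts, 346 CPM in replicate 1 and 388 in replicate 2, with a mean of 367 ± 29.4 CPM and rank 111. Mir362 was the lowest member, with 1119 and 957 counts, 259 and 249 CPM, a mean of 254 ± 6.62 CPM and rank 127. The ranges of these 2 did not overlap either. Mir532, Mir188, Mir501, Mir500 and Mir362 therefore stood in the same order of level in both libraries, and no neighbours in that order overlapped.

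**Figure D1:**
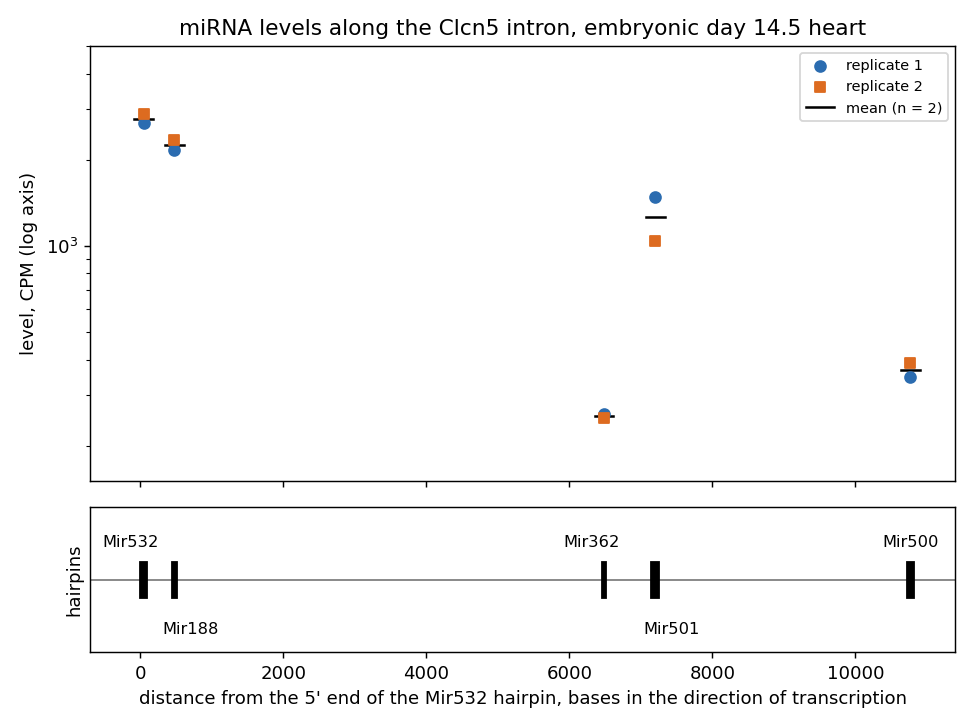
Levels of the 5 miRNAs along the Clcn5 intron. The upper panel gives CPM on a log axis for replicate 1 (circles) and replicate 2 (squares) with the mean (line, n = 2), and the lower panel draws the hairpins to scale by distance from the 5′ end of the Mir532 hairpin. The first 2 hairpins are the highest, Mir362 at 6451 bases is the lowest, and Mir501 beside it shows the widest gap between the libraries.

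Level did not follow position evenly. From Mir188 to Mir362, across the gap of 5942 bases, the level was 8.36-fold lower in replicate 1 (7.86 to 8.90) and 9.44-fold lower in replicate 2 (8.83 to 10.1). It was then 5.71-fold (5.36 to 6.10) and 4.17-fold (3.88 to 4.48) higher in Mir501, only 630 bases beyond Mir362. The whole range, from Mir532 to Mir362, was 10.4-fold (9.78 to 11.1) in replicate 1 and 11.6-fold (10.8 to 12.4) in replicate 2, a mean of 10.98 ± 0.825. These folds between members of 1 library do not depend on the scaling. They compare read counts, and whether the libraries capture each miRNA equally well was not tested.

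The hairpins themselves differed in length and predicted stability in another order than the levels. Mir532 measured 96 bases with a predicted folding energy of -33.2 kcal/mol (RNAfold), Mir188 68 bases with -28.8, Mir362 65 bases with -28.5, Mir501 109 bases with -46.9 and Mir500 92 bases with -41.9. Per base, the member with the most reads had the least negative energy (-0.35) and Mir500 the most negative (-0.46). With 5 genes no relation was computed.

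Scaled by totals, the cluster as a whole was at almost the same level in both libraries. Its members summed to 6933 CPM in replicate 1 and 6910 in replicate 2, a mean of 6922 ± 16.3 CPM or 0.692% ± 0.00163 of the gene reads. The ratio of replicate 2 to replicate 1 was 0.997 (95% exact interval 0.980 to 1.01). It was 0.953 (0.937 to 0.9685) with TMM factors and 0.921 (0.906 to 0.937) with DESeq2's median-of-ratios factors, alternatives added after the data were seen, so of these scalings the near equality holds for totals only. Without Mir501 the other 4 members summed to 5456 and 5872 CPM, a ratio of 1.08 (1.06 to 1.10) by totals and 0.995 (0.977 to 1.01) by median of ratios. Inside the sum the shares differed. Mir532 and Mir188 together gave 69.96% of the cluster reads in replicate 1 and 75.8% in replicate 2, a mean of 72.9% ± 4.09.

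Mir532 gave 38.8% (95% Clopper-Pearson interval 38.2 to 39.3) and 41.7% (41.1 to 42.3) of the cluster, and Mir188 31.2% (30.7 to 31.7) and 34.0% (33.5 to 34.6). Mir501 gave 21.3% (20.85 to 21.8) in replicate 1 and 15.0% (14.6 to 15.5) in replicate 2. Mir500 gave 4.99% and 5.61%, and Mir362 3.73% and 3.61%. The intervals of the 2 libraries overlapped for Mir362 alone. In replicate 2 the cluster therefore held a lower share of Mir501 and higher shares of Mir532, Mir188 and Mir500. Shares are parts of the same sum, so a lower share of Mir501 by itself raises those of the others. Folds between members other than Mir501 had overlapping intervals in the 2 libraries. Mir532 was 1.24-fold and 1.23-fold above Mir188, 7.77-fold and 7.43-fold above Mir500, and 10.4-fold and 11.6-fold above Mir362. The higher shares therefore do not by themselves show higher levels of those members.

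**Figure D2:**
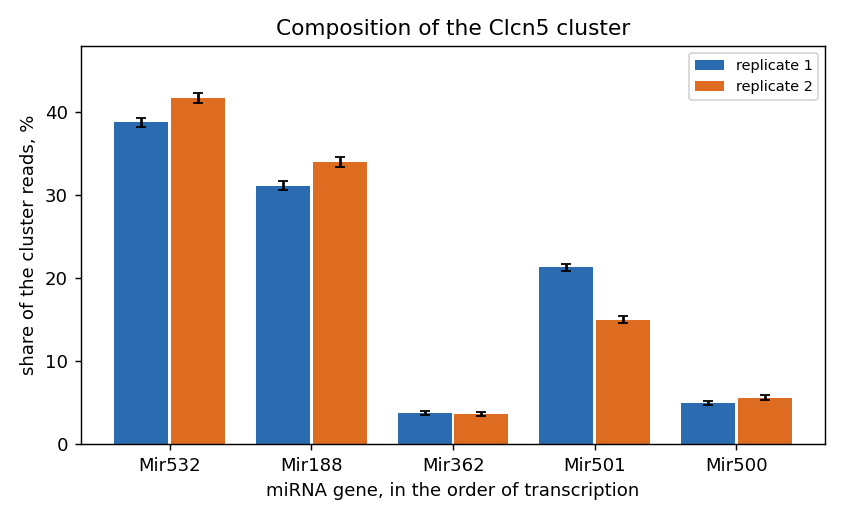
Share of each miRNA in the reads of the cluster, in percent, for replicate 1 and replicate 2, with 95% Clopper-Pearson intervals as error bars. Mir501 takes 21.3% in replicate 1 and 15.0% in replicate 2, while the other 4 members differ by less than 3 percentage points.

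Among the 5 members, Mir501 had the ratio of replicate 2 to replicate 1 that lay furthest from 1. Its ratio was 0.703 (95% exact interval 0.675 to 0.731), which is 1.42-fold lower in replicate 2. That of Mir532 was 1.07 (1.04 to 1.10), but 0.991 with the median-of-ratios scaling described next. The others were 1.09 (1.06 to 1.12) for Mir188, 1.12 (1.04 to 1.204) for Mir500 and 0.964 (0.883 to 1.05) for Mir362. By the counting interval 4 of 5 members differed between the libraries, against 52.2% of the 337 detected genes. With TMM factors 2 members did, Mir188 and Mir501, against 55.8%, and with median-of-ratios factors 2, Mir362 and Mir501, against 55.5%. Mir501 was the 1 member whose interval left out 1 under all 3 scalings. The share of detected genes for which this holds under all 3 was not computed, so this does not set Mir501 apart from them. Mir501 alone was lower by more than 1.2-fold under each scaling. So were 16.0% of detected genes with totals, 22.3% with TMM factors and 26.1% with median-of-ratios factors, and 1 of 5 members is near these shares. No member was higher by more than 1.2-fold under any of them, as were 27.0% of detected genes with totals.

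That background depends on the scaling. Of detected genes past 1.2-fold, 62.8% were higher in replicate 2 with totals, 51.0% with TMM factors and 43.95% with DESeq2's median-of-ratios factors, which move the median log2 ratio of detected genes by -0.11. Relative to the median of detected genes, Mir501 lay at -0.59 (log2), Mir362 at -0.13, Mir532 at 0.02, Mir188 at 0.04 and Mir500 at 0.08. These values are the same under each of these scalings by construction, since a scaling moves every log2 ratio by the same amount. Among the 170 detected genes whose mean reached 100 CPM, the median absolute log2 ratio was 0.19, or 1.14-fold. Mir501 had the fifth lowest ratio of these and the 14th largest in either direction, while the other 4 members ranked from 96 to 150. Their absolute log2 ratios, 0.05 to 0.16, lay below that median.

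**Figure D3:**
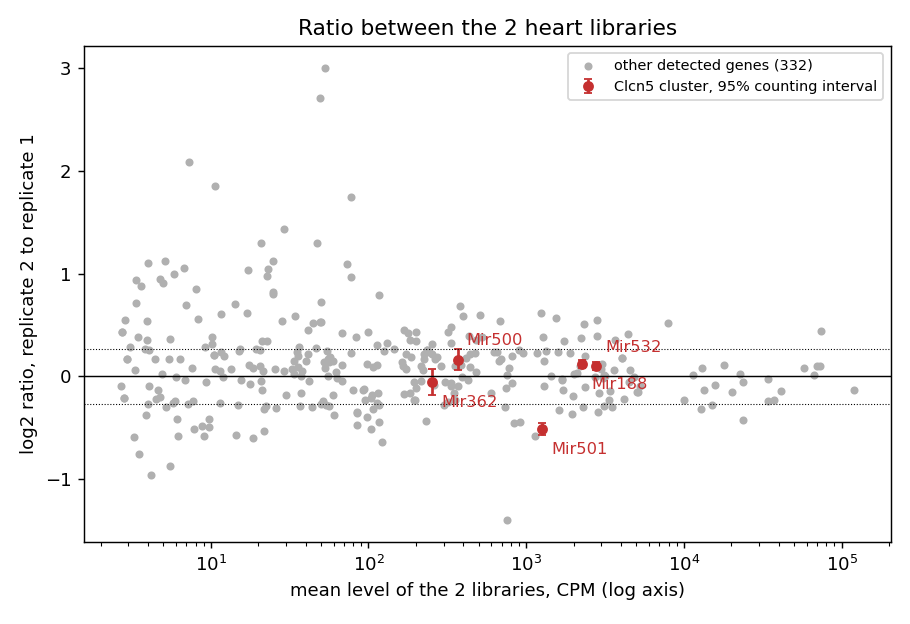
Log2 ratio of replicate 2 to replicate 1 against the mean level (CPM, log axis) for the 337 detected genes, with the 5 members in red and their 95% counting intervals. Dotted lines mark 1.2-fold. Mir501 lies at -0.51, below the lower line, and the other 4 members lie between the lines.

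Set against its neighbours, which removes the scaling, Mir501 had 27.1 reads per 100 reads of the other 4 members in replicate 1 and 17.7 in replicate 2. The ratio was 0.653 (95% interval 0.625 to 0.682). This comparison was chosen after the values were seen. To place it, each gene whose mean reached 100 CPM in a cluster with 3 or more detected genes was set against the median log2 ratio of its cluster mates. A cluster here is a run of measured miRNA genes on 1 strand with gaps of at most 10 kb. Over 55 such genes in 11 clusters the median absolute departure was 0.14. Mir501, at -0.62, departed most of the 55, followed by Mir341 (0.60) and Mir351 (-0.53). With no CPM minimum it ranked 7 of 93, and with gaps of up to 50 kb it ranked 2 of 61.

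The marker lists that differed most between the libraries were red blood cell (0.413 as a ratio of replicate 2 to replicate 1, both genes detected), epithelium (1.71, all 7 detected), smooth muscle (1.35, both detected) and neuron (1.33, 3 of 8 detected). The neuron value rests on Mir137, at 13.2 and 85.7 CPM, while Mir128-1 (121 and 108 CPM) and Mir128-2 (22.4 and 14.8 CPM) were lower in replicate 2. Mir128-1 and Mir128-2 are numbered as copies, so their counts, and the neuron sum, can leave reads out. As sums, heart muscle (1.05) and endothelium (1.07) differed little. The heart muscle sum rests mostly on Mir208b (ratio 1.01), while on the same list Mir208a had a ratio of 1.43 and Mir499 of 1.09. Whether these differences have a part in the ratio of Mir501 was not tested. Bulk heart RNA cannot tell fewer cells of a type from less of a miRNA per cell.

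The deposited counts do not separate the 5p from the 3p arm, so levels per mature miRNA or seed are upper limits set by the gene. Mir501 and Mir500, which share the 3p seed AUGCACC, summed to 1824 CPM in replicate 1 and 1426 in replicate 2 (1625 ± 281, SD, n = 2). Mir501 exceeded Mir500 in both, by 4.27-fold (4.04 to 4.52) and 2.68-fold (2.52 to 2.84). Mir500 and Mir362, which share the 5p seed AUCCUUG, summed to 605 and 637 CPM (621 ± 22.8). Mir500 lay above Mir362 by 1.34-fold (1.24 to 1.45) and 1.56-fold (1.43 to 1.69).

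Outside the cluster only a few genes of the RefSeq table carried one of these seeds. Mir329, a miRNA of the Dlk1-Dio3 imprinted region on chromosome 12, shares ACACACC with miR-362-3p. It had 217 and 211 CPM (214 ± 4.44), below Mir362 in both libraries. Mir7061, whose 3p arm shares AUCCCUU with miR-188-5p, was not analysed here. The seeds of miR-188-3p, miR-532-3p, miR-501-5p, miR-362-5p with miR-500-5p, and miR-500-3p with miR-501-3p occurred in no further gene of that table.

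Reads on the opposite strand were looked for at each hairpin. The tables do not name their columns, and the strand of a gene was taken to be the column that holds 95.35% ± 0.103 (SD, n = 2) of gene reads. All 5 members had 0 opposite-strand reads in both libraries, as did 91.7% of the 337 detected genes. The upper limit was taken as 3 reads where 0 were found, which is approximate and not an exact interval like the others. For Mir532 this allows a share of up to 0.0258% in replicate 1 and 0.0271% in replicate 2. For Mir362, the member with fewest reads, it allows 0.268% and 0.313%.

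In these counts clusters of miRNAs often spanned a wide range, and the Clcn5 cluster lay in the middle of those fully detected. Reads that map to several places enter no gene, which can lower genes with copies and shift the spread of their clusters. No member shared a stretch of 20 bases with another annotated hairpin, while 48.7% of measured genes with a hairpin did. The ranking below is therefore not like for like. Its spread from highest to lowest member was 3.45 ± 0.11 (SD, n = 2) on the log2(CPM + 1) scale. Of the 35 clusters with every gene detected, 17 had a smaller spread and 17 a larger one, and the range was 0.06 to 10.45. Over all 104 clusters, many with genes at or near 0, 71 were tighter and 32 wider. Of the 35, 28 hold 2 genes. Among the 7 clusters with 3 or more genes, all detected, 2 were tighter, Mir182/Mir183/Mir96 (1.81) and Mir106b/Mir25/Mir93 (3.25). The widest of the 7 was the Mir322 cluster, also on the X chromosome, at 10.45. By summed level the Clcn5 cluster was exceeded by 4 of these 7.

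**Figure D4:**
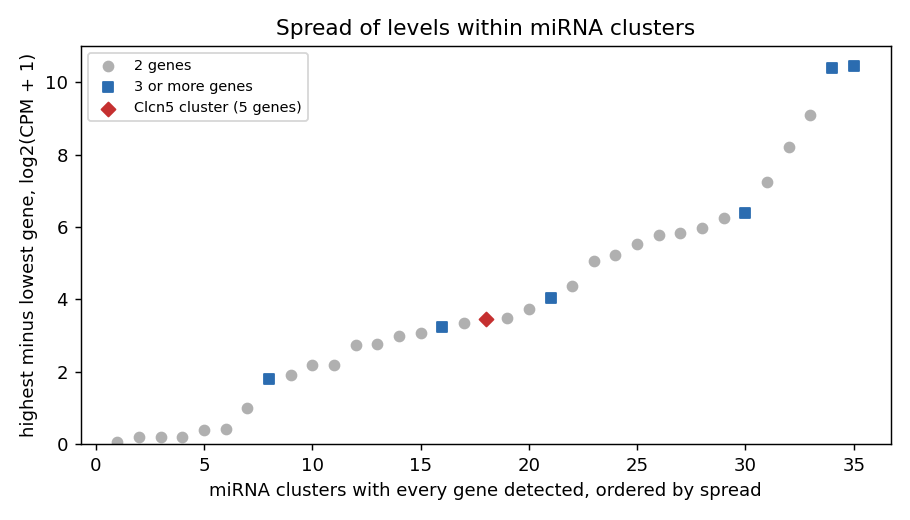
Difference between the highest and the lowest gene, on the log2(CPM + 1) scale and as a mean of 2 libraries, for the 35 miRNA clusters with every gene detected, ordered by that difference. The Clcn5 cluster (diamond, 3.45) is at the middle, and clusters of 3 or more genes are drawn as squares. Genes with copies can be under-counted, which can shift the spread of other clusters.

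The cluster gave 5.38% ± 0.0520 (SD, n = 2) of all miRNA reads from the X chromosome, where 37 of 120 measured genes were detected. On that chromosome Mir532 ranked 7, Mir188 8, Mir501 10, Mir500 16 and Mir362 19. Among other X-linked miRNAs that sit in host genes, the members spread from high to low. Besides the 5 members the list had 14 genes, of which 12 were measured and 8 detected. Mir652, in Tmem164, was the highest at 11372 and 11478 CPM, and Mir98, in Huwe1, followed at 4501 and 3875. Mir532 came next, above Mir361 in Chm, which at 2113 and 2268 CPM lay just below Mir188 in both libraries. Mir501 was near Mirlet7f-2 in Huwe1 (1372 and 917 CPM), which was also lower in replicate 2 (ratio 0.668). Mirlet7f-2 is numbered as a copy, and reads shared between copies enter no gene. Its counts can therefore leave reads out, so neither its level nor its ratio is like for like with Mir501.

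Mir374b (482 ± 82.3 CPM) and Mir421 (415 ± 35.9 CPM) in Ftx, a long non-coding RNA gene, were above Mir500 in both libraries. Mir224 in Gabre (263 ± 21.9 CPM) overlapped Mir362, at 248 CPM in replicate 1 and 279 in replicate 2. Mir452, also in Gabre (22.6 ± 3.81 CPM), was below all members. The 4 measured genes in Htr2c, a brain serotonin receptor gene, Mir448, Mir1264, Mir1298 and Mir1912, did not reach 10 counts in both libraries. Of the 8 other detected genes 1, Mirlet7f-2, was lower and 2, Mir374b and Mir452, were higher in replicate 2 by more than 1.2-fold with totals as the scale.

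**Figure D5:**
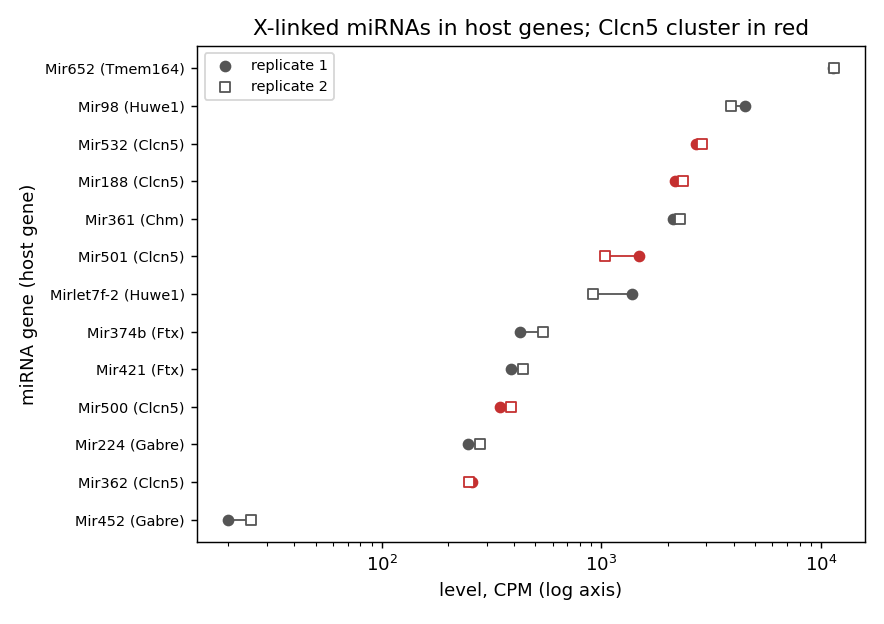
Levels (CPM, log axis) of the 13 detected X-linked miRNAs in host genes, with the host in brackets. Filled circles are replicate 1, open squares replicate 2, and the Clcn5 cluster is red. Mir532 and Mir188 stand next below Mir652 and Mir98, and Mir501 and Mirlet7f-2 show wide gaps with replicate 2 lower. Mirlet7f-2, numbered as a copy, can be under-counted.

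The genes closest in mean level to each member came from other loci. For Mir532 they were Mir431 (2794 ± 736 CPM) and Mir140 (2796 ± 530), and for Mir188 they were Mir1983 (2238 ± 411) and Mir423 (2294 ± 330.5). Each varied more between the libraries than its member. Mir10a (1243 ± 368) and Mir101b (1281 ± 239) were closest to Mir501 but had ratios of replicate 2 to replicate 1 of 1.53 and 1.30, on the other side of 1. Mir330 (369 ± 17.3) and Mir429 (381 ± 126) were closest to Mir500, and Mir29a (254 ± 39.2) and Mir540 (252 ± 27.4) to Mir362. Likeness here is only that of the mean over 2 libraries.

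In all, 3 of the 5 members, Mir532, Mir188 and Mir501, had means of 1000 CPM or more, as did 23.1% of the 337 detected genes. Mir501 at 1039 CPM in replicate 2 was the nearest to that limit.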

How the data were processed

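The authors deposited whole-number read counts per miRNA gene for each library, not normalized as judged from the values, with 1 column for both strands and 1 for each strand. They refer to mm10 and GENCODE M4, per the text deposited with them. Which aligner and counter the authors ran is not given in the sources used here. Reads that map to several places are counted apart, so copies can be under-counted. The first strand-specific column was used, and 4 lines that name no gene, 47.0% ± 0.191 (SD, n = 2) of all reads, were left out of totals. 3 counts correspond to 0.693 and 0.781 CPM in replicates 1 and 2.

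Names and positions came from GENCODE M21 (same assembly), which named 1894 of 1973 identifiers. Scaling alternatives used edgeR 4.0.16 (TMM) and DESeq2 1.42.0 in R 4.3.3. Other steps used Python 3.11.15, scipy 1.17.1 and ViennaRNA 2.7.2. Ratio intervals are exact binomial intervals of 1 count given the sum, and the Mir501 ratio to its cluster mates uses the log odds ratio interval. Ratio intervals were tested on simulated Poisson counts, the model they assume, so the test does not cover reads that are not independent.

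Named were all members, the 2 genes closest in mean CPM to each, detected genes sharing a seed, X-linked host-gene miRNAs, markers, and other miRNAs inside Clcn5. Genes named for their departure or spread were chosen after their values were seen. Members and lists were chosen with earlier results of these data known. Of the X-linked list, Mir374c and Mir660 were not analysed here, and 1 further gene is not reported here.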

Additional observations from a re-analysis of the deposited data

How the results depend on the processing

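Of 94 alternative values over 23 results, 81 stayed within 1 SD, the counting interval, or 1.5 times a count. Part of these could not have come out otherwise, so the count is no measure of stability. With 2 libraries, each one lies within 1 SD of their mean, which fixes the result of leaving out a replicate for levels, sums, shares, folds and spread. Shares and folds with both strands together could not change, because the members had no opposite-strand reads. With both strands together the cluster sum was 6600 CPM, since the total is larger. Against 54 and 91 genes, the numbers lower and higher in replicate 2 by more than 1.2-fold were 125 and 159 among genes with 1 count in each library, and with median-of-ratios scaling 88 were lower. The ratio of Mir532 between replicates turned from 1.07 to 0.991 with median-of-ratios scaling, while that of Mir501 was 0.6495 with it and 0.672 with TMM. With gaps of at most 5 kb the cluster split, and the spread of the part with Mir362, Mir501 and Mir500 was 2.28. Leaving out a replicate gave sums of 6910 to 6933 CPM, folds of 10.4 to 11.6, spreads of 3.37 to 3.53 and 348 to 359 detected genes. No paired analysis was possible because there is only 1 group. With 2 libraries an SD is itself imprecise, and depth set counting intervals of about 2% for Mir532 and 6% for Mir362.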
